A study of Homo sapiens with 2 samples.

Results

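The UGT2B genes encode UDP-glucuronosyltransferases, enzymes of the endoplasmic reticulum that attach glucuronic acid to steroids, bile acids and drugs. In prostate cells, UGT2B15 and UGT2B17 are the enzymes best known for conjugating testosterone, dihydrotestosterone and their reduced metabolites, which ends the activity of these androgens and lets them leave the cell. UGDH, UDP-glucose 6-dehydrogenase, makes UDP-glucuronic acid, the sugar donor that all of these enzymes use. The 8 genes described here were chosen by symbol: UGT2B4, UGT2B7, UGT2B10, UGT2B11, UGT2B15, UGT2B17, UGT2B28 and UGDH. Each symbol matched 1 row of the 25343 rows of the deposited table. Androgen repression of UGT2B15 and UGT2B17 and androgen induction of UGDH have been described in LNCaP cells, as background to the comparison.

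The study has 2 RNA-seq libraries, 1 per group, so no difference below has a replicate check and no p-value is given. C4-2B is a castration-resistant prostate cancer line obtained from C4-2 cells, themselves derived from LNCaP. The Con group is the enzalutamide-sensitive line, grown in serum-containing medium with DMSO. The ENZR group is the resistant line, grown in the same medium with 20 µM enzalutamide, a drug that blocks the androgen receptor. Resistance and the presence of the drug therefore cannot be told apart. Both sample titles carry the ending shC, which the labels do not explain, and the labels do not say whether ENZR is 1 clone. The libraries held 21024484 reads (Con) and 23479051 reads (ENZR) in genes. Of 9 luminal prostate markers, all had a mean over both libraries of 1 CPM or more. Their levels summed to 4031 CPM in Con and 2073 CPM in ENZR. KLK3 stood at 1428 CPM in Con beside 3.72 CPM for ENZR, KLK2 at 72.2 CPM beside 17.4 CPM and CDH1 at 802 CPM beside 484 CPM. TMPRSS2, HOXB13, KRT18 and FOXA1 were also lower in ENZR, FOXA1 at 444 CPM beside 428 CPM, and KRT8 and EPCAM were higher. Basal and leukocyte markers summed to at most 0.392 CPM, and the 6 hepatocyte markers, relevant because several UGT2B genes are abundant in liver, summed to 3.23 CPM in Con and 5.14 CPM in ENZR. The hepatocyte gene APOB had 0 reads in both libraries, while albumin, ALB, was found in 0 reads of Con and 46 of ENZR, and its part in the differences below was not tested. The 4 stromal markers summed to 20.4 CPM in Con and 46.8 CPM in ENZR, mostly from COL1A1, with COL1A2 at 0 reads in both, and the 2 endothelial markers to 1.57 CPM and 1.66 CPM.

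The UGT2B genes lie in one cluster on chromosome 4 and resemble each other so closely that the assignment of short reads among them bears on every value below. In the GENCODE transcripts, the coding sequences of UGT2B15 and UGT2B17 were 96.5% identical, differing at 55 of 1593 bases. Those of UGT2B11 and UGT2B28 were 97.0% identical, with 47 differences over 1590 bases. Their most different 60-base stretches are shown because reads over such bases are the ones that separate the members of each pair. Bases are counted from the first base of the start codon, and capitals mark the positions at which the 2 genes of a pair differ. Bases 242 to 301 of the first pair hold 9 differences, and bases 34 to 93 of the second hold 5.
UGT2B15: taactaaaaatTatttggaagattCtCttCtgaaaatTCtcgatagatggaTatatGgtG
UGT2B17: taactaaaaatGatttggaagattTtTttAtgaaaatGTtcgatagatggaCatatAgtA
UGT2B11: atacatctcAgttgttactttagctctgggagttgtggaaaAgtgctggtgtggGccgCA
UGT2B28: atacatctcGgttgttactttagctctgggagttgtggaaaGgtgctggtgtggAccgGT

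Reads that fall wholly within an identical run cannot separate the genes of a pair. The longest such run spans 199 bases in UGT2B15 and UGT2B17 (bases 866 to 1064) and 110 bases in UGT2B11 and UGT2B28 (bases 94 to 203). The libraries were read as single reads of 50 bases. Of all 50-base windows of the UGT2B15 transcript, 72.2% occurred in no transcript of another gene, and the same held for 72.2% of UGT2B17, 68.3% of UGT2B10, 64.3% of UGT2B28 and 52.7% of UGT2B11. UGT2B4 (96.8%), UGT2B7 (93.3%) and UGDH (99.7%) were nearly free of windows shared exactly. When up to 2 mismatches were allowed, windows unlike all other UGT2B members made up 43.1% of UGT2B15, 39.8% of UGT2B17, 25.5% of UGT2B11 and 18.6% of UGT2B28. Such windows made up 77.9% of UGT2B4, 57.0% of UGT2B7 and 40.8% of UGT2B10. Among the 7 UGT2B members, UGT2B15 and UGT2B17 resembled mainly each other, and UGT2B28 resembled mainly UGT2B11 and UGT2B10. Pseudogenes shared exact windows too: UGT2B24P held 17.6% and UGT2B25P 14.3% of the UGT2B28 windows, beside 20.7% for UGT2B11 and 5.66% for UGT2B10. Of the UGT2B11 windows, 22.4% occurred in UGT2B25P and 18.1% in UGT2B28.

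**Figure D1:**
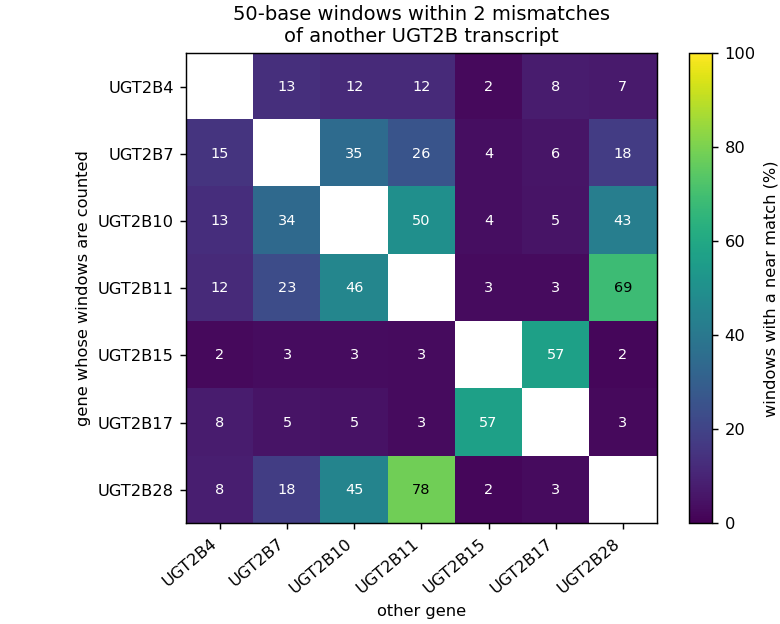
Each cell gives the percentage of the 50-base windows of the gene in the row that match the transcript of the gene in the column with at most 2 mismatches. UGT2B15 and UGT2B17 form one block (56.9% each way), and UGT2B28 and UGT2B11 another (78.4% and 68.6%), with UGT2B10 beside it.

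UGT2B15 was the most abundant UGT2B gene in both libraries and was higher in ENZR, whereas UGT2B17, its closest relative, was lower. UGT2B15 had 305 reads in Con, or 14.9 CPM (reads per 1000000 after the authors' TMM scaling), and 523 reads in ENZR, or 21.1 CPM. Its plain ratio of ENZR over Con was 1.42, with an exact 95% interval of 1.23 to 1.64 that covers counting error only and is called the counting interval below. UGT2B17 had 141 reads (6.91 CPM) in Con and 78 reads (3.15 CPM) in ENZR. It was 2.19-fold lower in ENZR (counting interval 1.65 to 2.93). A ratio of 1 lay outside the counting interval for both genes, as for 59.8% of all genes with a mean under 20 CPM. The 2 genes moved in opposite directions.

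UGT2B28, which also conjugates steroids, was the member furthest from equal levels. Con gave 60 of its reads (2.94 CPM) and ENZR gave 9 (0.364 CPM), which makes it 8.08-fold lower (counting interval 3.98 to 18.5). UGT2B11, its nearest relative in sequence, whose substrates are less well known, was at 3.43 CPM (70 reads) in Con against 5.01 CPM (124 reads) for ENZR. The ratio for UGT2B11 was 1.46 (1.08 to 1.99). UGT2B10, an enzyme of amine N-glucuronidation, had 30 reads (1.47 CPM) and 24 reads (0.971 CPM), and its ratio of 0.660 had a counting interval of 0.369 to 1.17. A difference in UGT2B10 was thus not detectable at this depth.

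The remaining UGT2B genes were close to the limit of detection. UGT2B7, which has a broad range of substrates including steroids and opioids, was found in 1 read of Con and 2 reads of ENZR, both at or under the floor of 3 counts, so no fold is given. UGT2B4, a bile acid and steroid enzyme of the liver, had 0 reads in Con and 7 reads (0.283 CPM) from ENZR. Against a floor of 3 counts in Con (0.147 CPM), UGT2B4 came out 1.93-fold higher in ENZR. The counting interval of its ratio began lower, at 1.19, so 1.93 is not a lower bound.

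UGDH was higher in ENZR. Its level was 54.3 CPM (1108 reads) in Con against 107.7 CPM (2663 reads) for ENZR, and the ratio was 1.98 (1.85 to 2.13). With the TMM scaling undone, its log2 ratio went from 0.98 to 1.09. UGDH-AS1, a non-coding gene that starts beside UGDH and runs the opposite way, lay at 253 CPM for Con against 378 CPM for ENZR, with a ratio of 1.50 (1.45 to 1.55). UGDH-AS1 was not among the genes found to share an exact window with the UGDH transcript. The use of strand in counting is not given in the sources used here. Whether reads of UGDH and UGDH-AS1 were mixed in the authors' counting was not tested. In bulk RNA a change in the level per cell and a change in the share of cells that express a gene cannot be told apart.

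**Figure D2:**
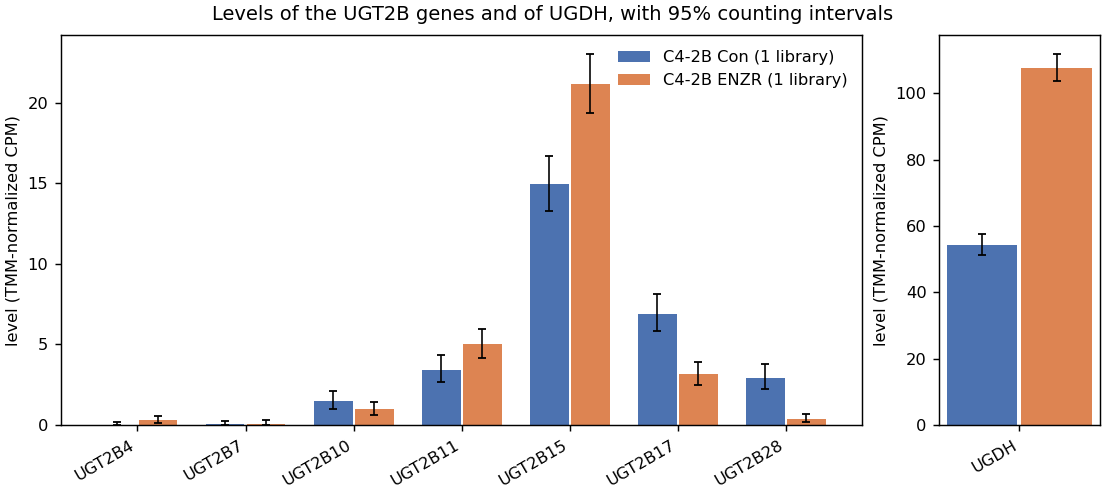
Bars give the level of each gene in TMM-normalized CPM in the Con library and the ENZR library, and error bars are exact 95% Poisson intervals of the read count; UGDH has its own axis. UGT2B15 and UGDH are higher in ENZR, UGT2B17 and UGT2B28 are lower, and UGT2B4 and UGT2B7 lie near 0.

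Divided by the length of the longest coding transcript, the levels had a partly different order in the libraries. In Con, UGDH stood at 16.9 CPM per kilobase, UGT2B15 at 7.19, UGT2B17 at 3.33, UGT2B11 at 1.64, UGT2B28 at 1.60 and UGT2B10 at 0.761 CPM per kilobase. UGT2B11 and UGT2B28 were thus level with each other in Con, with 1.17 reads of UGT2B11 per read of UGT2B28 (0.815 to 1.68). In ENZR, UGDH stood at 33.5 CPM per kilobase and UGT2B15 at 10.2, followed by UGT2B11 at 2.40, UGT2B17 at 1.52, UGT2B10 at 0.503, UGT2B28 at 0.199 and UGT2B4 at 0.135 CPM per kilobase. UGT2B11 passed UGT2B17 in that order, and UGT2B28 moved below UGT2B10. UGT2B28 and UGT2B4 rested on 9 and 7 reads there and did not differ beyond counting error.

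On the log2 scale with 1 CPM added to each value, which understates low genes, 6 of the 8 members reached a mean of 1 CPM. Of these, 3 were above 0 and 3 below, and the median was 0.058, beside -0.0065 over the 13803 genes that reached the same mean. UGT2B28 (-1.53) was the 1 member at least 2-fold lower on this scale, where 4.64% of all these genes were. It reached the mean through Con alone and so had to differ, and its count says nothing more about the members. No member was at least 2-fold higher, against 6.69% of all genes, and UGDH (0.98) lay just under that bound. UGT2B17 stood at -0.93, UGT2B10 at -0.33, UGT2B11 at 0.44 and UGT2B15 at 0.47. A ratio of 1 lay outside the counting interval for 5 of the 6 members and for 71.2% of all genes, so that count is near the background. Among the 5 members with a mean under 20 CPM the share past 2-fold can be read against genes of like level, of which 12.7% were higher and 6.61% lower, with 59.8% outside a ratio of 1 by counting error. Of all 13803 genes, 2.04% had a lower log2 ratio than UGT2B28, 5.57% a lower one than UGT2B17, and 93.1% a lower one than UGDH. Low genes vary more: among the 5474 genes with a mean under 20 CPM, 3.31% lay below UGT2B28 and 7.62% below UGT2B17. Since UGT2B28 was kept through Con alone and had to differ, its ranks are not separate support for a difference.

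**Figure D3:**
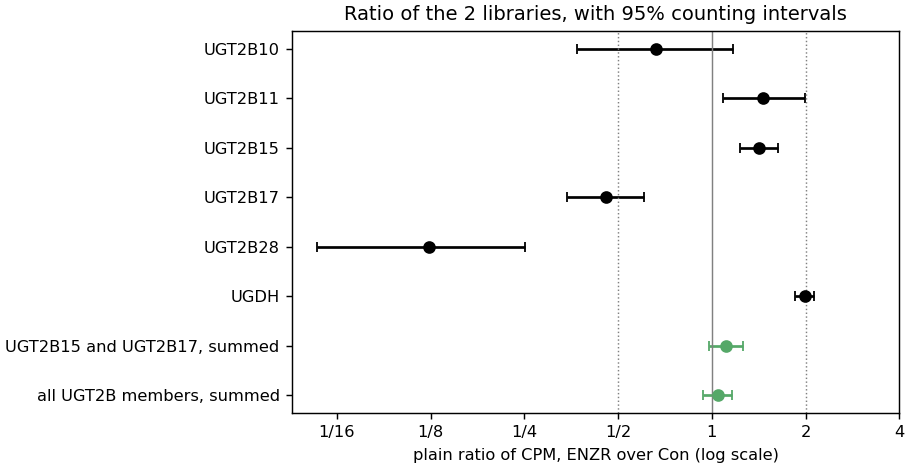
Points give the plain ratio of ENZR over Con on a log2-spaced axis with exact 95% counting intervals, in black for single genes and in green for sums; the solid line marks equal levels and the dotted lines mark 2-fold. UGT2B28 lies furthest to the left, and both sums have intervals that include 1.

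The UGT2B genes summed to nearly the same level in both libraries, while the make-up of that sum differed. All 7 together gave 29.7 CPM from 607 reads of Con and 31.0 CPM from 767 reads of ENZR. The ratio of the sums was 1.04 (counting interval 0.936 to 1.16). With the TMM scaling undone the ratio was 1.13 (1.02 to 1.26), so whether the sum lay at or slightly above 1 rests on the scaling. The sum does not depend on how reads were divided among the members. Reads that match pseudogenes outside it can still bear on it and on the sum of UGT2B11 and UGT2B28, which was not tested. UGT2B15 and UGT2B17 together stood at 21.9 CPM and 24.3 CPM, a ratio of 1.11 (0.982 to 1.26). UGT2B11 and UGT2B28 together had 130 and 133 reads, a ratio of 0.844 (0.658 to 1.08). Without UGT2B15, the sum of the other 6 UGT2B genes was lower in ENZR, at 14.8 CPM and 9.87 CPM, with a ratio of 0.667 (0.561 to 0.792). Within that sum UGT2B17 and UGT2B28 were lower and UGT2B11 was higher.

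UGT2B15 supplied 50.2% of the UGT2B reads in Con (exact binomial interval 46.2% to 54.3%) and 68.2% in ENZR (64.8% to 71.5%). UGT2B17 supplied 23.2% in Con (19.9% to 26.8%) and 10.2% in ENZR (8.12% to 12.5%). The share of UGT2B28 was 9.88% in Con (7.63% to 12.5%) and 1.17% in ENZR (0.538% to 2.22%). For each of these 3 genes the intervals of the shares, which cover counting error only, did not overlap. Such shares within a family have no counterpart over all genes. The share of UGT2B11 was 11.5% in Con (9.10% to 14.3%) and 16.2% in ENZR (13.6% to 19.0%), with intervals that overlapped, as did those of UGT2B10 at 4.94% and 3.13%.

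**Figure D4:**
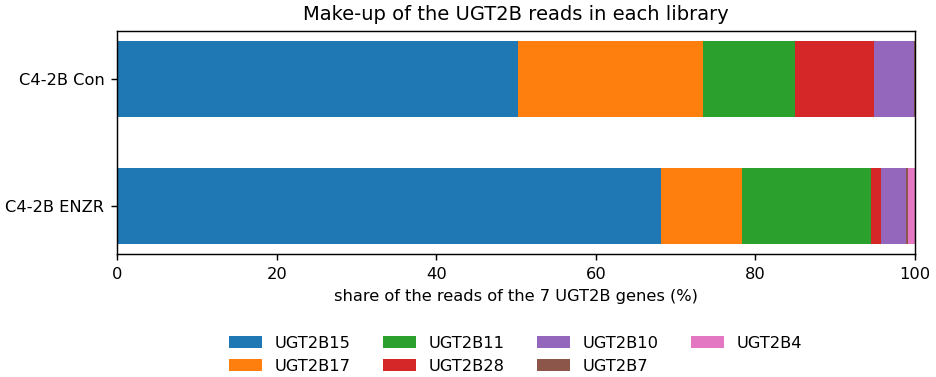
Each bar divides the reads of the 7 UGT2B genes in 1 library by gene, as a percentage of 607 reads in Con and 767 reads in ENZR. The UGT2B15 segment spans 50.2% in Con and 68.2% in ENZR, and the UGT2B17 and UGT2B28 segments are narrower in ENZR.

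Ratios of reads within a library are free of the scaling between libraries. They still rest on how reads were shared out among close relatives, which their intervals do not cover. UGT2B15 had 2.16 reads per read of UGT2B17 in Con and 6.71 in ENZR, a change of 3.10-fold (exact interval 2.25 to 4.29). UGT2B11 had 1.17 reads per read of UGT2B28 in Con and 13.8 in ENZR, a change of 11.8-fold (5.36 to 28.5). UGT2B11 over UGT2B10 went from 2.33 to 5.17, a change of 2.21-fold (1.15 to 4.28). The ratio of UGT2B15 to UGT2B11 was 4.36 in Con and 4.22 in ENZR, and its change of 0.968 had an interval of 0.688 to 1.35. A change in the proportion of these 2 genes, from different sequence blocks, was thus not detectable beyond counting error. Within each block the nearest relative was lower in ENZR. Whether the division of reads within a block differed between the libraries was not tested. UGT2B17 and UGT2B28 were not lower by the same factor, since UGT2B17 over UGT2B28 changed by 3.69-fold (1.69 to 8.88).

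The promoter stretches of UGT2B15, UGT2B10 and UGT2B11 are shown because these genes resemble each other upstream too, yet UGT2B15 and UGT2B11 were higher in ENZR and UGT2B10 was not. They come from RefSeq (GRCh38.p14), whose table matched 5 of the 8 members: UGDH, UGT2B7, UGT2B10, UGT2B11 and UGT2B15. Each stretch is the 120 bases before the annotated transcript start, read 5′ to 3′ on the strand of the gene. Capitals mark the longest run that all 3 share, of 18 bases. UGT2B15 lies at chr4:68670653-68670772 on the minus strand, UGT2B10 at chr4:68815874-68815993 on the plus strand and UGT2B11 at chr4:69214749-69214868 on the minus strand.
UGT2B15: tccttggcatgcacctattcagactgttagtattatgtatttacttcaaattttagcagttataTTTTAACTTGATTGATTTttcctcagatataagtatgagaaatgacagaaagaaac
UGT2B10: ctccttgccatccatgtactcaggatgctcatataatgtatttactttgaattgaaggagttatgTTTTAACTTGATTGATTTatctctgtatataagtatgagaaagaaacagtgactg
UGT2B11: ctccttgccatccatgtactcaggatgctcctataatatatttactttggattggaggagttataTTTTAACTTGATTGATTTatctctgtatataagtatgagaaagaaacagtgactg

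Over the 250 bases before the start, UGT2B10 and UGT2B11 were 90.2% identical, UGT2B11 and UGT2B15 70.9%, and UGT2B10 and UGT2B15 68.7%. The shared run begins 56 bases before the start in UGT2B15 and 55 bases before it in UGT2B10 and UGT2B11. Motif letters were searched on both strands of the same 250 bases, with overlapping matches counted. The motif AGAACA, 1 arm of an androgen response element, was matched once in UGT2B15 and in none of the other 4, beside 12.4% of the 35116 promoters of the table. The forkhead motif TGTTTAC was also matched once, in UGT2B15, beside 2.98% of all promoters. The TATA box letters TATAAA were matched 3 times in UGT2B10 and 2 times in UGT2B11, and 10.7% of all promoters held them. None of the matches to these motifs lies in the stretches printed above, so all lie further from the start. Between the shared run and the start, UGT2B10 and UGT2B11 hold TATATAAG and UGT2B15 holds GATATAAG. The searched letters TATAAA do not match these, so the counts do not show which genes have a TATA box. These matches describe letters in a window and not bound sites.

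Of 10 listed genes that supply or use UDP-glucuronic acid, 8 reached a mean of 1 CPM. A log2 ratio above 0 was found for 6 of them and below 0 for 2, where 49.5% of all genes were above 0, and the median was 0.38. PGM1, phosphoglucomutase, which forms glucose 1-phosphate, went from 193 reads to 1922, and its ratio was 8.22 (7.09 to 9.58). PGM2, listed by its name as a phosphoglucomutase, went from 1123 reads to 1882, a 1.38-fold difference (1.28 to 1.49). UGP2, which makes the UDP-glucose that UGDH oxidizes, had a ratio of 1.23 (1.13 to 1.35). HAS3, a hyaluronan synthase that draws on the same sugar donor, was 2.44-fold higher (1.75 to 3.46), while HAS1 and HAS2 had 0 reads in both libraries. SLC35D1, a transporter of the donor into the endoplasmic reticulum, had 35 and 34 reads. GUSB, the lysosomal glucuronidase that removes glucuronic acid, had a ratio of 1.08 (1.00 to 1.15).

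Outside the UGT2B group, glucuronosyltransferases were almost undetected. Of 15 other UGT genes, 14 missed a mean of 1 CPM, none of them had more than 12 reads, and 7 had 0 reads in both libraries, UGT2A3 among them. UGT8, which adds galactose to ceramide rather than glucuronic acid to steroids, was the 1 gene kept and was 2.48-fold lower (2.24 to 2.74).

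Enzymes that form or reduce androgens before they are conjugated had a median log2 ratio of -0.089 over 10 kept genes of 18. Of these, 7 were within 2-fold on the log2 scale, where 6.69% of all genes kept were past it upward and 4.64% downward. The other 3 were AKR1C1, AKR1C2 and AKR1C3, reductases of steroid ketones that are close in sequence, so that their split is uncertain. They reached a mean of 1 CPM through ENZR alone and so had to differ. AKR1C3 was found in 0 reads of Con but 81 of ENZR, and AKR1C1 in 1 and 66. SRD5A1, a 5-alpha reductase, was 1.61-fold lower (1.39 to 1.86).

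Sulfation is the other route of steroid conjugation. Of 8 kept genes, SULT2B1, a hydroxysteroid sulfotransferase, was 2.75-fold lower (2.22 to 3.41) and the other 7 were within 2-fold. Among all genes kept, 4.64% were at least 2-fold lower on the log2 scale. SULT1E1, the estrogen sulfotransferase, had 3 and 8 reads. The median log2 ratio was -0.15.

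Transporters that carry conjugates moved in both directions. Of 7 kept genes, 2 passed 2-fold upward and 2 downward, beside 6.69% and 4.64% of all genes kept, with a median of 0.39. ABCC4, an exporter of organic anions including steroid conjugates, was 10.9-fold lower (10.1 to 11.8), and SLCO4A1, an organic anion transporter, 2.09-fold lower (1.92 to 2.28), which fell short of 2-fold on the log2 scale with the TMM scaling undone (-0.93). SLCO3A1, of the same family, was 9.68-fold higher (7.26 to 13.1) and ABCG2, an efflux pump, 3.21-fold higher (2.20 to 4.79).

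Among 14 transcription factors known to act on UGT2B genes, 8 were kept and 6 of these lay within 2-fold. Over all genes kept, 6.69% were at least 2-fold higher on the log2 scale and 4.64% at least 2-fold lower. FOXA1, a pioneer factor of luminal cells, had a ratio of 0.963 (0.936 to 0.991), and its log2 ratio of -0.054 became 0.063 with the TMM scaling undone. AHR, the aryl hydrocarbon receptor, was 2.33-fold higher (1.91 to 2.86). HNF4A and NR1I2, factors of liver and gut, had at most 1 read.

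**Figure D5:**
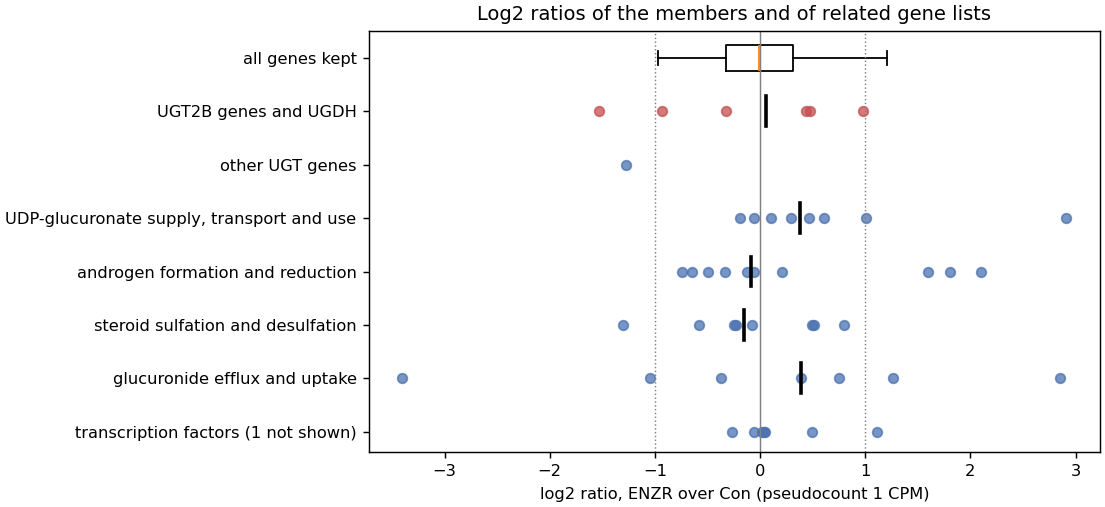
Points are log2 ratios of ENZR over Con, with 1 CPM added, of genes that average 1 CPM or more; the top row is a box of all 13803 such genes (quartiles, whiskers at percentiles 5 and 95), black bars are medians and dotted lines mark 2-fold. The members spread from -1.53 (UGT2B28) to 0.98 (UGDH), and PGM1 (2.91) and ABCC4 (-3.40) lie furthest out among the related lists; 1 transcription factor is not shown.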

How the data were processed

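The authors deposited 1 table with 1 signal value per gene and library, named as TMM-normalized CPM (reads per 1000000). The submitters' processing notes list Bowtie2 2.1.0, RSEM 1.2.15, edgeR and hg19 with no role given, and the gene annotation is not given in the sources used here. RSEM shares out reads that match several genes, so values of close relatives depend on that step. All values (100% in each library, within 0.01 reads) were whole multiples of 1 step, so whole-number counts were recovered, called reads here. Each read was worth 0.0490 CPM in Con and 0.0404 CPM in ENZR. For close relatives these are counts as assigned, and the counting intervals do not cover the division of reads between genes. With 1 library per group no count test can be fitted, so ratios have exact 95% Clopper-Pearson counting intervals. A floor of 3 counts served for genes at 0 reads. Genes that averaged 1 CPM or more were kept for log2 ratios (pseudocount 1 CPM).

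All 8 members were named, and from each of 7 related lists up to 2 higher and 2 lower genes past 2-fold, plus 8 fixed genes (GUSB, UGP2, UGT2A3, SULT1E1, YTHDC1, FOXA1, AKR1C3 and SRD5A1); 1 gene that the rule takes is not reported here. Members and lists were chosen with earlier results of these data known. Ratios within a library, the sum of UGT2B11 and UGT2B28, the sum without UGT2B15, the class under 20 CPM, the promoter motifs and the genes AKR1C1, PGM2, HAS1, HAS2, SLC35D1, HNF4A, NR1I2 and UGDH-AS1 were chosen after values were seen. The calculation was tested on simulated data. Transcripts came from GENCODE (GRCh38), used for lengths and sequence only. Python 3.11.15, scipy 1.17.1 and biopython 1.88 were used.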

Additional observations from a re-analysis of the deposited data

How the results depend on the processing

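Other pseudocounts, filters and scalings were tried. The median log2 ratio of all genes shifted by 0.108 when the TMM scaling was removed, by 0.049 under upper quartile scaling and by 0.107 without the 10 most abundant genes. In each of these 3 settings 1 member, UGDH, was at least 2-fold higher, where 0 were in the deposited scaling. The count of members at least 2-fold lower was 1, and became 2 with a pseudocount of 0.5 CPM (UGT2B17 joined) and 0 with a pseudocount of 5 CPM or with a mean of 5 CPM or more. Replacing UGT2B28 by the sum of all UGT2B genes reversed its log2 ratio from -1.53 to 0.059, by the construction of that sum. The median of the androgen-forming genes (-0.089) became 0.050 with no filter and 0.027 with the TMM scaling undone, and that of sulfation genes (-0.15) became 0.094 with no filter. Of the related genes past 2-fold, HAS3 (0.55), AKR1C1 (0.60), AKR1C3 (0.73), ABCG2 (0.64), AHR (0.81), EPHA5 (0.91), SULT2B1 (-0.91) and SLCO4A1 (-0.96) were not past it on the log2 scale with a pseudocount of 5 CPM. Both summed ratios and all 10 shares moved by less than their counting intervals. No median is given for the other UGT genes, since 1 was kept. No paired analysis was possible because each group has 1 library. Counting error is the only error measured, and the spread between cultures is unknown. Members under about 100 reads in both libraries (UGT2B10, UGT2B28, UGT2B4 and UGT2B7) are limited by depth. So, in 1 library each, are UGT2B11 (70 reads in Con) and UGT2B17 (78 reads in ENZR).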

Other observations

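Genes that flank the UGT2B cluster on chromosome 4 did not share one direction. YTHDC1, a reader of RNA methylation, was measured at 75.5 CPM for Con against 84.6 CPM for ENZR, and its ratio was 1.12, with a counting interval that excluded 1. Of 19 listed genes in the wider neighbourhood that the table held, 5 reached a mean of 1 CPM. Their log2 ratios were above 0 for 4 and below for 1, where 49.5% of all genes were above 0. EPHA5, an ephrin receptor, went from 4 reads to 118, with a ratio of 24.3 (9.26 to 90.8). EPHA5 reached a mean of 1 CPM through ENZR alone and so had to differ. TMPRSS11E, a membrane serine protease next to the cluster, had 49 and 33 reads and was 1.80-fold lower (1.13 to 2.89), named after its values were seen. Beside UGDH, SMIM14 had a ratio of 0.967 (0.854 to 1.09, with 1 inside) and LIAS, lipoic acid synthetase, 1.26 (1.09 to 1.45), both also named after their values were seen.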
